A study of Mus musculus with 56 samples.

Results

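Livers of mice given 4 doses of NTS-1 were compared with livers of mice given the vehicle alone. The comparison used 14 of the 56 arrays of the series, chosen by their titles and by no measured value. NTS-1 is an LNA gapmer, a short antisense oligonucleotide whose ends carry locked nucleic acids and whose centre is DNA, and the submitters call it a non-toxic sequence. No base sequence or target of NTS-1 was used here. All animals were male CD-1 mice, an outbred stock, 6 to 8 weeks old at the first dose. The NTS-1 group held 4 mice that received 25 mg/kg under the skin on days 1, 4, 8 and 11, and livers were taken on day 14. TS-2, a gapmer called toxic by the submitters, was given to 5 mice at the same dose and on the same days, and these arrays entered the fit. The p-values measure the spread between the mice of a group. The vehicle group held 10 mice given Dulbecco's phosphate buffered saline, the solvent of both gapmers, on the same days. The labels do not say how the livers of the 2-week set were chosen for the arrays. In the single-dose study used below, livers with the highest hypertrophy score were chosen, so those livers are a selected set. Whole liver RNA was measured, so fewer cells of a type and less RNA per cell cannot be told apart.

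A gapmer pairs with RNA through its bases, and its DNA centre lets RNase H1 cut the paired RNA. Much of an injected oligonucleotide of this class reaches the liver, where sinusoidal endothelial cells and Kupffer cells take it up through scavenger receptors such as the stabilins, and hepatocytes take it up as well. Nucleic acid sensors can answer a foreign oligonucleotide with type I interferon, which switches on the interferon-stimulated genes.

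Measures of array quality overlapped between the groups. Between 54.6% and 57.0% of probe sets reached an intensity of 32 in NTS-1 mice and 54.8% to 57.5% in vehicle mice. The log2 ratio of the 3' to the 5' probe set of Actb, a sign of RNA integrity, was 1.48 to 1.90 in NTS-1 mice and 1.36 to 1.87 in vehicle mice. The defining hepatocyte gene Alb, which encodes albumin, had intensities of 32312 to 33524 in NTS-1 mice and 32141 to 34239 in vehicle mice, which marks the tissue. These values lie near the top of the array's range and do not compare the groups.

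The vehicle mice separated by replicate number in genes of the circadian clock. Dbp, a transcription factor under clock control, had intensities of 67.6, 72.1, 85.8 and 78.4 in the 4 NTS-1 mice, 50.2 to 120.4 in vehicle mice numbered 1 to 5 and 194 to 1616 in vehicle mice numbered 6 to 10. The NTS-1 mice lay within the range of the lower-numbered controls and below all of the higher-numbered ones. Nr1d2, a clock repressor, had 193, 216, 596 and 212 in NTS-1 mice, against 179.6 to 724 in vehicle mice 1 to 5 and 965 to 1681 in vehicle mice 6 to 10. Arntl, a clock activator of the opposite phase, had 364, 516, 421 and 401 in NTS-1 mice, against 283 to 399 in vehicle mice 1 to 5 and 133 to 339 in vehicle mice 6 to 10. None of the 20 clock genes measured passed the test against all 10 vehicle mice (adjusted p = 0.132 for Nr1d2, 0.45 for Dbp and 0.26 for Arntl). In the fit with the vehicle mice as 2 groups none passed against mice 1 to 5. Against mice 6 to 10 the repressors Nr1d2 and Nr1d1 were lower (log2 change -2.34 with limma adjusted p = 0.0131, and -1.49 with 0.0479), and the activator Npas2 was higher (log2 change 0.93, adjusted p = 0.0425). The labels give no batch, day or hour for these mice, and the part of this split in other genes was not tested. Leading lists and some single genes are therefore given with all 10 vehicle mice and against mice 1 to 5 alone. The latter values come from a fit with the vehicle mice as 2 groups. A gene printed without them need not pass there. Of the 80 named genes past the test, 31 passed against mice 1 to 5. Nr1d1, Nr1d2, Npas2 and Arntl, like other genes said below to lie outside the naming rule, were chosen after their values were seen.

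In all, 759 of 14537 genes (5.22%) differed between NTS-1 and vehicle mice at an adjusted p under 0.05 (limma on log2 intensity, Benjamini-Hochberg over all genes tested). Of the genes tested, 295 or 2.03% were higher after NTS-1 and 464 or 3.19% were lower. After quantile normalization of the same values 444 were higher and 423 lower. The changes were small, with a median size of 1.44-fold among these genes. A change of 2-fold or more was seen in 24 of them, 2 higher and 22 lower. In 138 of the higher and 160 of the lower genes no NTS-1 mouse overlapped a vehicle mouse, and of all genes tested 1.54% lay wholly above and 1.51% wholly below the vehicle mice. All 759 had the same direction against vehicle mice 1 to 5. These mice are among the 10 that gave the calls, so a kept direction is no separate support. Of the 759, 145 passed the test there, where 67 genes (0.461%) were higher and 86 genes (0.592%) lower. Against mice 6 to 10, 162 genes (1.11%) were higher and 341 (2.35%) lower, and 106 of the 759 passed against both sets of vehicle mice separately. With vehicle mice 1 to 5 as the only controls in the fit, 9 genes passed and 2143 had an unadjusted p under 0.05. Leaving out NTS-1 mouse 3 left 165 genes past the test, leaving out NTS-1 mouse 2 left 207, NTS-1 mouse 4 left 287, NTS-1 mouse 1 left 377, and leaving out vehicle mouse 2 gave 1327.

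**Figure D1:**
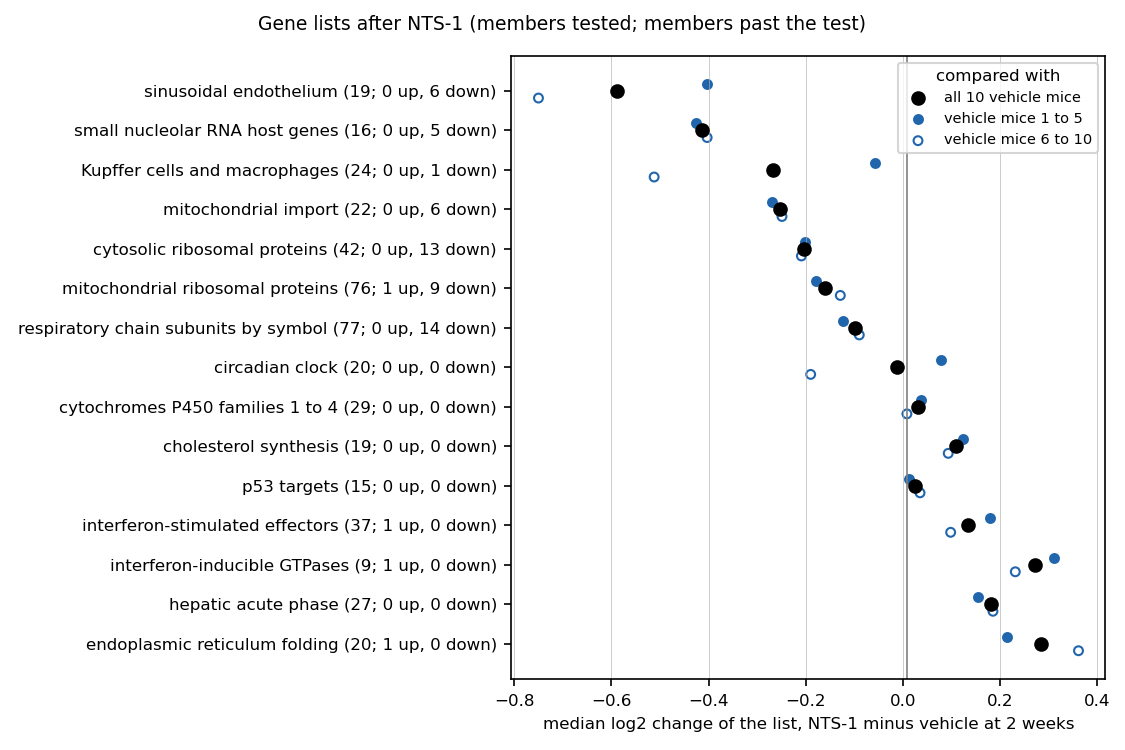
Median log2 change of gene lists, NTS-1 minus vehicle at 2 weeks. Black points use all 10 vehicle mice, filled blue points vehicle mice 1 to 5, open blue points vehicle mice 6 to 10, and the grey line is the median of all genes tested (0.01). The sinusoidal endothelium lies at -0.59 with all vehicle mice and at -0.40 against mice 1 to 5.

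Genes of the liver sinusoidal endothelium, the fenestrated lining of the liver's blood channels, were lower after NTS-1 in 6 of 19 cases. All 19 markers of the list were measured, and all 19 changes were negative, from -0.99 to -0.27 on the log2 scale, with a median of -0.59 beside 0.01 for all genes tested. Of the 19, 6 (31.58%) passed the test, all lower, beside 3.19% of all genes lower, namely Fcgr2b, Tek, Oit3, Gpr182, Cdh5 and Kdr. The last 2 fall outside the naming rule and were named after their values were seen. The summed intensity of the list was 3692 to 5262 in NTS-1 mice and 5243 to 9663 in vehicle mice, so the groups met at the edge. As the mean log2 deviation of the list from the mean of the vehicle mice, the NTS-1 mice stood at -0.33, -0.59, -0.73 and -0.76, vehicle mice 7 and 10 at 0.67 and 0.47, and the other 8 vehicle mice between -0.40 (mouse 2) and -0.01. Vehicle mouse 2 thus lay below NTS-1 mouse 1, and vehicle mice 7 and 10 lay far above the rest. With vehicle mice 7 and 10 left out, a choice made after seeing these values, the median was -0.40 and 4 of the 19 passed. Against vehicle mice 1 to 5, part of the same controls, the median was -0.40, all 6 kept their direction and none of the 19 passed. With NTS-1 mouse 3 or NTS-1 mouse 4 left out none passed, with NTS-1 mouse 2 left out 1 passed, and 3 passed without NTS-1 mouse 1 or without vehicle mouse 5, 6, 8, 9 or 10.

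Kdr encodes the main endothelial receptor for vascular endothelial growth factor. Its intensity was 312, 251, 194 and 190.1 in NTS-1 mice, against a lowest of 330.1, a median of 369 and a highest of 561 in vehicle mice. Every NTS-1 mouse lay below every vehicle mouse (log2 change -0.73 ± 0.17, limma adjusted p = 0.0192). Fcgr2b, an Fc receptor that in liver sits mainly on this endothelium, had 527, 663, 367 and 354 in NTS-1 mice and a lowest of 705, a median of 865 and a highest of 1603 in vehicle mice. These groups did not overlap either (log2 change -0.99 ± 0.27, limma adjusted p = 0.0406). Oit3, a marker of the same cells, had 196, 167, 169 and 151 in NTS-1 mice, against a lowest of 209, a median of 318 and a highest of 560.4 in vehicle mice, and was 1.87-fold lower with no overlap (limma adjusted p = 0.0243). Cdh5, the cadherin that joins endothelial cells, had 84.8, 69.5, 59.4 and 51.9 in NTS-1 mice and a lowest of 93.7, a median of 107 and a highest of 153 in vehicle mice (log2 change -0.78 ± 0.21, limma adjusted p = 0.0406).

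Tek and Gpr182 fell with vehicle mouse 2 inside the range of the NTS-1 mice. Tek, the angiopoietin receptor, had 54.7, 60.6, 57.8 and 44.2 in NTS-1 mice, against a lowest of 51.9, a median of 105 and a highest of 199.8 in vehicle mice (log2 change -0.99 ± 0.25, limma adjusted p = 0.0284). Gpr182, an atypical chemokine receptor, had 268, 266, 214 and 204 in NTS-1 mice and a lowest of 232, a median of 391 and a highest of 693 in vehicle mice (log2 change -0.80 ± 0.22, limma adjusted p = 0.0386). The stabilins, which take up phosphorothioate oligonucleotides and were named after their values were seen, did not pass. Stab1 had 160.0, 111, 105 and 109 in NTS-1 mice, against a lowest of 152, a median of 179 and a highest of 228 in vehicle mice (log2 change -0.61, adjusted p = 0.112). Stab2 had 401, 309, 324 and 248 in NTS-1 mice, against a lowest of 259.8, a median of 409 and a highest of 635 in vehicle mice (log2 change -0.41, adjusted p = 0.252).

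**Figure D2:**
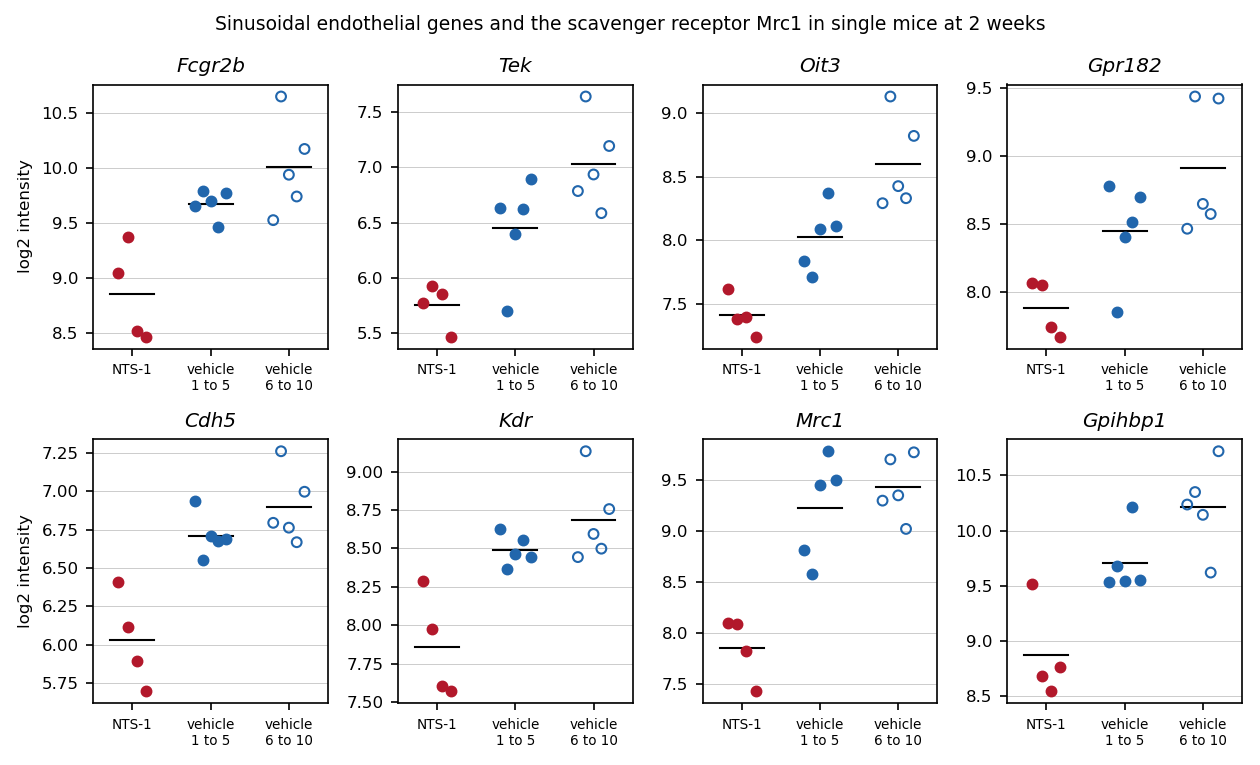
Log2 intensity of 8 genes in single mice at 2 weeks, with NTS-1 mice left of vehicle mice 1 to 5 (filled) and 6 to 10 (open), and black lines at the group means. The NTS-1 mice lie below every vehicle mouse for all but Tek and Gpr182.

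Mrc1 fell most firmly among the genes of endothelial cells and macrophages named here. It encodes the mannose receptor, a scavenger receptor of sinusoidal endothelial cells and macrophages. Its intensity was 274, 272, 226 and 172 in NTS-1 mice, against a lowest of 382, a median of 679 and a highest of 884 in vehicle mice. It was 2.78-fold lower (log2 change -1.47 ± 0.25, limma adjusted p = 0.00545), passed against vehicle mice 1 to 5 (-1.37, adjusted p = 0.0322), and kept an adjusted p of at most 0.026 with each mouse left out in turn. Gpihbp1, which anchors lipoprotein lipase on capillaries, had 730.4, 411, 373 and 434 in NTS-1 mice and a lowest of 742, a median of 975 and a highest of 1687 in vehicle mice (log2 change -1.08 ± 0.26, limma adjusted p = 0.0219). It did not pass against vehicle mice 1 to 5 (limma adjusted p = 0.121) or without NTS-1 mouse 2, 3 or 4. Maf, a transcription factor of macrophages and of sinusoidal endothelium, had 286, 341, 318 and 227 in NTS-1 mice, against a lowest of 353, a median of 616 and a highest of 735 in vehicle mice (log2 change -1.0 ± 0.19, limma adjusted p = 0.00845). Calcrl, Icam2, Bmp2 and Adgrl4, genes of endothelial cells named after their values were seen, were lower too, with log2 changes of -0.94, -0.72, -0.71 and -0.62 and limma adjusted p of 0.0143, 0.0318, 0.0411 and 0.0488. None of them passed against vehicle mice 1 to 5 (limma adjusted p of 0.0708, 0.156, 0.0899 and 0.178). They lost the call in 2, 6, 10 and 12 of the fits with 1 mouse left out.

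Of 24 markers of Kupffer cells and macrophages, all measured, Mrc1 alone passed (4.17%, near the 3.19% of all genes lower). The median was -0.27 with all vehicle mice and -0.06 against mice 1 to 5, but -0.51 against mice 6 to 10, -0.03 without vehicle mice 7 and 10 and -0.51 without NTS-1 mouse 2. The mean log2 deviation of the list was 0.28 in NTS-1 mouse 2 and -0.27, -0.51 and -0.58 in NTS-1 mice 1, 3 and 4, against 0.64 and 0.89 in vehicle mice 7 and 10 and -0.56 to 0.16 in the other vehicle mice. The summed intensity was 8454 to 14442 in NTS-1 mice and 10023 to 18584 in vehicle mice. Clec4f, a lectin of Kupffer cells, had 393, 853, 269.6 and 311 in NTS-1 mice, against a lowest of 357, a median of 553 and a highest of 1307 in vehicle mice, and the groups overlapped (log2 change -0.66, adjusted p = 0.277). Cd68, a lysosomal protein of macrophages, changed by -0.02 (adjusted p = 0.991) and Lyz2, lysozyme, by -0.999 (adjusted p = 0.259). No member passed in the lists of recruited monocytes (13 measured), neutrophils (12), T and natural killer cells (14), B and plasma cells (11) or stellate cells and matrix (20).

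Host genes of small nucleolar RNAs were lower after NTS-1 in 5 of 16 cases. Small nucleolar RNAs guide chemical changes of ribosomal RNA, and many are cut from introns of host genes, some of which code for no protein. This list was drawn up by symbol after the values were seen, so its counts are a description. A host gene under another kind of symbol is not in it, and the counts below hold for the listed genes only. Of the 16 measured hosts 5 (31.25%) passed the test, all lower, beside 3.19% of all genes lower. All 16 changes were negative, from -1.39 to -0.05 with a median of -0.41. Their summed intensity was 4630.2 to 5605 in NTS-1 mice and 5876 to 8328 in vehicle mice, with no overlap. Against vehicle mice 1 to 5 the median was about as low but none passed, and none passed without NTS-1 mouse 2, 1 without NTS-1 mouse 4, 2 without NTS-1 mouse 3, and 3 without NTS-1 mouse 1, without vehicle mouse 3, 4, 6, 8, 9 or 10, or without vehicle mice 7 and 10 together.

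Many host genes and ribosomal protein genes start transcription in a run of pyrimidines, the terminal oligopyrimidine tract. The sequences around the annotated starts of the 5 hosts that passed and of 2 ribosomal protein genes described next are printed to show where runs of C or T lie. Each holds 30 bases before and 30 bases from the start, on the strand of the gene, from RefSeq on GRCm38.p6. Capitals mark runs of 6 or more C or T between 10 bases before and 30 bases after the start.
Snhg1, chr19:8723457-8723516, plus strand: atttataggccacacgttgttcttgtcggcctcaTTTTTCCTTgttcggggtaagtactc
Snhg5, chr9:88522868-88522927, minus strand: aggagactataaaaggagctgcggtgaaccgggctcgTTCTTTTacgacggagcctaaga
Snhg12, chr4:132308648-132308707, plus strand: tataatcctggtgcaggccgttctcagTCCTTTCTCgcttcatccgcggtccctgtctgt
Snhg16, chr11:116671630-116671689, plus strand: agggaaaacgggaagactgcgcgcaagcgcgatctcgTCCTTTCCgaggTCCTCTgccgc
Zfas1, chr2:167062904-167062963, plus strand: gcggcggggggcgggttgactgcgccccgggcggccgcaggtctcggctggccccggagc
Rps18, chr17:33955636-33955695, minus strand: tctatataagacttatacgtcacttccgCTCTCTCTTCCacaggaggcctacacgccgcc
Fau, chr19:6057917-6057976, plus strand: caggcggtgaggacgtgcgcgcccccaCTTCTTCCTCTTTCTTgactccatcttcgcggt
All but Zfas1 hold a run within these limits. The run spans the annotated start in Snhg12, Rps18 and Fau, and every marked run lies after it in Snhg1, Snhg5 and Snhg16. A run within these limits need not be a tract in which transcription starts. Searched on the gene's own strand only, a run was held by 11 of 14 host genes (78.6%) and 28 of 37 ribosomal protein genes (75.7%) with a promoter sequence, beside 38.5% of 11655 tested genes. It was held by 39.0% of 382 genes that fell after NTS-1 and 42.9% of 245 genes that rose. The match is of letters alone.

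Snhg1 hosts several box C/D small nucleolar RNAs. Its intensity was 249, 250.2, 285 and 238 in NTS-1 mice, against a lowest of 307, a median of 735 and a highest of 1092 in vehicle mice. Every NTS-1 mouse lay below every vehicle mouse (log2 change -1.39 ± 0.30, limma adjusted p = 0.0149), and against vehicle mice 1 to 5 the change was -1.22, adjusted p = 0.0813. The other 4 hosts lay outside the naming rule. Snhg5 had 69.0, 63.2, 88.2 and 63.2 in NTS-1 mice and a lowest of 89.6, a median of 135 and a highest of 204 in vehicle mice (log2 change -0.92 ± 0.21, limma adjusted p = 0.0196), while a dimmer probe set of the gene changed by 0.12. Zfas1 had 327, 244, 239 and 258 in NTS-1 mice, against a lowest of 267, a median of 508 and a highest of 768 in vehicle mice (log2 change -0.85 ± 0.20, limma adjusted p = 0.0196). Snhg12 (-0.64, adjusted p = 0.0429) and Snhg16 (-0.61, adjusted p = 0.0443) were lower by less. Gas5, a further host, had 2401, 2324, 2254 and 1929 in NTS-1 mice and a lowest of 2150.1, a median of 2766 and a highest of 3022 in vehicle mice, and did not pass (log2 change -0.27, adjusted p = 0.153).

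A probe set annotated to Snord104, a box C/D small nucleolar RNA, fell as well. Whether it reads the small RNA itself or a longer transcript that holds it was not tested. Its intensity was 316, 131, 189.7 and 159 in NTS-1 mice, against a lowest of 328, a median of 521 and a highest of 668 in vehicle mice. The groups did not overlap (log2 change -1.43 ± 0.22, limma adjusted p = 0.00431). The call held against vehicle mice 1 to 5 (-1.46, adjusted p = 0.0295) and with each mouse left out (highest adjusted p = 0.0236). Among all 709 tested genes annotated as long noncoding or small nucleolar RNA, 2 (0.282%) were higher and 17 (2.40%) lower, shares below the 2.03% and 3.19% of all genes tested.

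Cytosolic ribosomal protein genes were lower by small amounts in 13 of 42 cases. Of 42 measured, listed by symbol after their values were seen, 13 (30.95%) were lower past the test, beside 3.19% of all genes, and none higher. The median was -0.20 against either all vehicle mice or mice 1 to 5. As the mean log2 deviation from the mean of the vehicle mice, the NTS-1 mice stood at -0.045, -0.326, -0.228 and -0.175. Vehicle mice 7 and 1 stood at -0.162 and -0.059, both below NTS-1 mouse 1. The summed intensities overlapped, reaching 405840 in NTS-1 mice and starting from 395251 in vehicle mice. Against mice 1 to 5, 5 of the 42 were lower past the test, beside 0.592% of all genes. Without NTS-1 mouse 2 or without NTS-1 mouse 3, 5 passed. The members described here were named after their values were seen. Rps15 of the small subunit had 8321, 7266, 7477 and 7542 in NTS-1 mice, against a lowest of 9423, a median of 10564 and a highest of 12881 in vehicle mice. Without overlap, it was 1.42-fold lower (limma adjusted p = 0.00527), and it passed against vehicle mice 1 to 5 (-0.49, adjusted p = 0.0295). Rpl19 of the large subunit had 9359, 8159, 8704 and 9197 in NTS-1 mice and a lowest of 10605, a median of 12161 and a highest of 13253 in vehicle mice (1.35-fold lower, limma adjusted p = 0.00527). Rpl11, which also binds Mdm2, was 1.38-fold lower (adjusted p = 0.00765). Rps18 and Fau, whose starts are printed above, were 1.36-fold lower (adjusted p = 0.0118) and 1.35-fold lower (adjusted p = 0.00999).

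**Figure D3:**
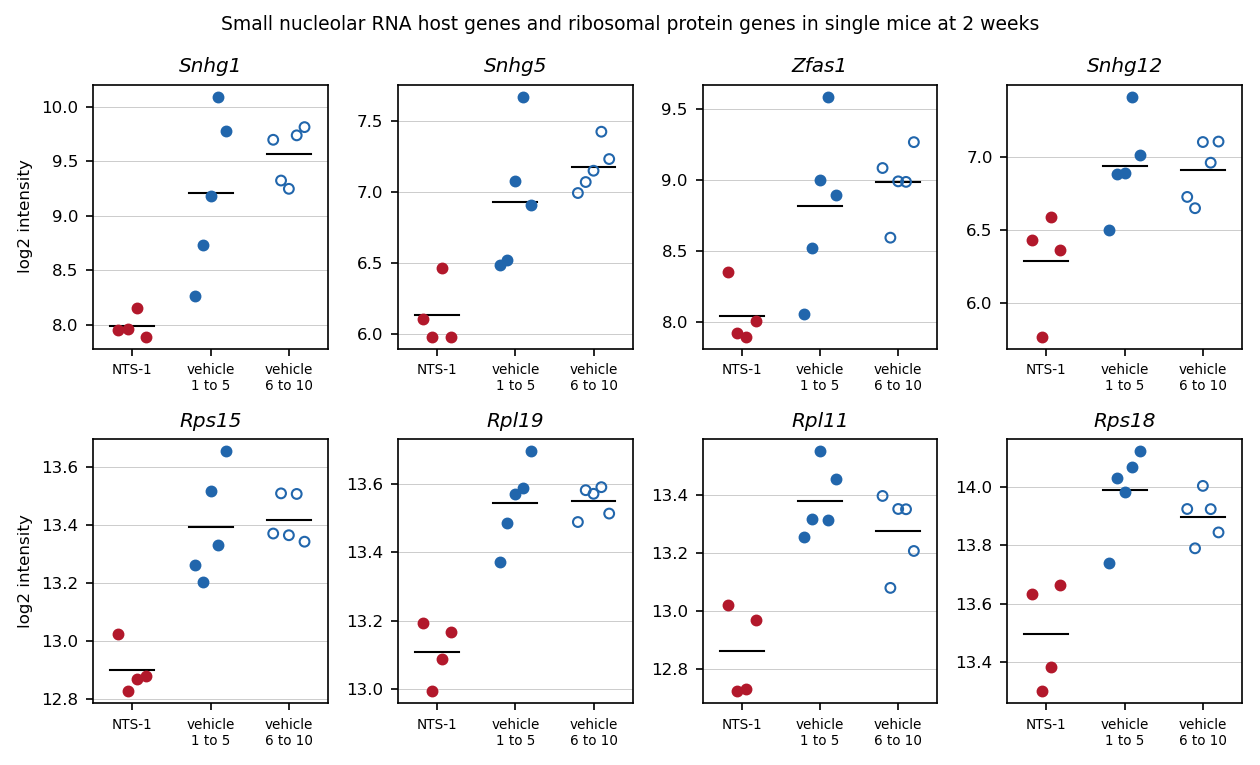
Log2 intensity of 4 host genes of small nucleolar RNAs and 4 ribosomal protein genes in single mice at 2 weeks, with NTS-1 mice left of vehicle mice 1 to 5 (filled) and 6 to 10 (open), and black lines at the group means. Snhg1 spans 238 to 285 in NTS-1 mice and 307 to 1092 in vehicle mice.

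Some genes of mitochondria fell. Among 77 respiratory chain subunits listed by symbol after values were seen, 14 (18.18%) were lower and none higher, with a median of -0.10. Among 76 mitochondrial ribosomal proteins 9 (11.84%) were lower and 1 (1.32%) higher, and among 22 genes of mitochondrial import 6 (27.27%) were lower and none higher. Of all genes tested 3.19% were lower and 2.03% higher. Against vehicle mice 1 to 5, 3, 2 and 1 members of these lists were lower, where 0.592% of all genes were lower. As the mean log2 deviation of each list, vehicle mouse 7 stood at -0.144, -0.219 and -0.189. The NTS-1 mice stood at -0.153 to -0.058, -0.167 to -0.059 and -0.327 to -0.146. Vehicle mouse 7 thus lay within their range for respiratory and import genes and below every NTS-1 mouse for mitochondrial ribosomal proteins. Without NTS-1 mouse 2 the counts of lower genes were 1 respiratory, 2 ribosomal and 1 import gene, and without NTS-1 mouse 3 they were 1, 1 and 0. Without NTS-1 mouse 4 they were 6, 3 and 3, and without NTS-1 mouse 1 they were 9, 3 and 2. Leaving out 1 vehicle mouse gave 10 to 17 respiratory, 3 to 18 ribosomal and 2 to 9 import genes, with 3 ribosomal genes without vehicle mouse 3, 5 or 6 and 18 without vehicle mouse 7. Sdhd, the membrane anchor of complex II, had 6523, 6377, 6558 and 5581 in NTS-1 mice, against a lowest of 7042, a median of 8353 and a highest of 8907 in vehicle mice, and was 1.30-fold lower (limma adjusted p = 0.0218). Timm8b, an import chaperone outside the naming rule, had 1294, 1263, 1062 and 1200.3 in NTS-1 mice and a lowest of 1271, a median of 1979.7 and a highest of 2443 in vehicle mice (log2 change -0.68 ± 0.14, limma adjusted p = 0.0109).

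Of the rises, the transcription factor Nfix and the cytochrome Cyp2d22 had the smallest adjusted p. Nfix, of the nuclear factor I family, had intensities of 2542, 2461, 2863 and 2406 in NTS-1 mice, against a lowest of 885, a median of 1073 and a highest of 1799.6 in vehicle mice. It was 2.27-fold higher (log2 change 1.18 ± 0.14, limma adjusted p = 0.000584) and passed against vehicle mice 1 to 5 (1.14, adjusted p = 0.00938). Nfic, of the same family, had 1177, 1358, 1178 and 1082 in NTS-1 mice and a lowest of 413, a median of 601 and a highest of 927 in vehicle mice (log2 change 0.95 ± 0.18, limma adjusted p = 0.0084). Cyp2d22, a drug-metabolising cytochrome P450, had 6414, 6863, 6573 and 6753 in NTS-1 mice, against a lowest of 3566, a median of 4262 and a highest of 4492 in vehicle mice. It was 1.60-fold higher with the smallest adjusted p of all genes tested (limma adjusted p = 0.000178), and it passed against vehicle mice 1 to 5 (0.65, adjusted p = 0.00439). In none of these 3 genes did the groups overlap.

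Further genes named by the rule rose without overlap. Lasp1, an actin-binding protein, had 1347, 1402, 1509.6 and 1319 in NTS-1 mice, against a lowest of 684, a median of 760.3 and a highest of 1076 in vehicle mice (log2 change 0.81 ± 0.13, limma adjusted p = 0.00527). Tgm2, tissue transglutaminase, had 2669, 2937, 3034 and 2421 in NTS-1 mice and a lowest of 1085, a median of 1568 and a highest of 2112 in vehicle mice (log2 change 0.82 ± 0.21, limma adjusted p = 0.0317). Sf3a2, a spliceosome subunit (0.81, adjusted p = 0.0084), Pdxk, pyridoxal kinase (0.81, adjusted p = 0.00737), Plec, the linker plectin (0.79, adjusted p = 0.0344), and Tjp3, a tight junction protein (0.72, adjusted p = 0.0131), were higher too. A dimmer probe set of Pdxk changed by -0.22. Actb (0.54, adjusted p = 0.0273) and Gapdh (0.33, adjusted p = 0.0316), often used as reference genes and named after their values were seen, were also higher. The groups overlapped for Gapdh but not for Actb, and 1 of the Actb probe sets changed by -0.04. Neither gene passed against vehicle mice 1 to 5 (limma adjusted p of 0.108 and 0.0731). Actb lost the call when any 1 of the 4 NTS-1 mice was left out, and Gapdh in 7 of the fits with 1 mouse left out.

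Genes of the secretory pathway changed in both directions. Among 68 genes of N-glycosylation, translocation and vesicle coats, listed by symbol after values were seen, 36 changes were positive and 32 negative. The median was 0.05. Past the test 14 (20.59%) were higher and 5 (7.35%) lower, beside 2.03% and 3.19% of all genes. Against vehicle mice 1 to 5, 5 were higher and none lower, beside 0.461% and 0.592% of all genes. Without NTS-1 mouse 2, 6 were higher and 1 lower with a median of -0.01, and the counts were 5 and 0 without NTS-1 mouse 3, 7 and 0 without NTS-1 mouse 4, and 8 and 2 without NTS-1 mouse 1. Rrbp1, a ribosome-binding protein of the rough endoplasmic reticulum, had 2957, 2828, 3069.6 and 2787 in NTS-1 mice, against a lowest of 1639, a median of 1951 and a highest of 2201 in vehicle mice. It was 1.52-fold higher without overlap (limma adjusted p = 0.00643). Mogs, the glucosidase that starts N-glycan trimming, had 1131, 1197, 1095 and 1248 in NTS-1 mice and a lowest of 712, a median of 833 and a highest of 944 in vehicle mice (1.43-fold higher, limma adjusted p = 0.00674). Alg3, a mannosyltransferase (0.55, adjusted p = 0.00766), Pdia5, a protein disulfide isomerase (0.50, adjusted p = 0.0056), and Rpn1, of the oligosaccharyltransferase (0.47, adjusted p = 0.0227), were higher, and these 5 genes were named after their values were seen. In the list of endoplasmic reticulum folding genes Dnajc3, a co-chaperone, alone of 20 passed (0.47, adjusted p = 0.0143), and the median was 0.28. Against vehicle mice 1 to 5 Dnajc3 did not pass (limma adjusted p = 0.0811).

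Single genes of plasma proteins, iron and lipid handling rose while most of their lists did not pass. C2, a complement protease, had 2636, 3068, 2116 and 2195 in NTS-1 mice, against a lowest of 1443, a median of 1642 and a highest of 1773 in vehicle mice (log2 change 0.60 ± 0.11, limma adjusted p = 0.00674). Proc, the anticoagulant protein C, was 1.19-fold higher (adjusted p = 0.0259). C2 and Proc were the only 2 of 24 coagulation and complement genes past the test (8.33%, beside 2.03% of all genes higher). Tfr2, the iron sensor of hepatocytes, had 7171, 6928, 6735 and 6147 in NTS-1 mice and a lowest of 4382, a median of 4963 and a highest of 5399 in vehicle mice. It was 1.39-fold higher (limma adjusted p = 0.00527) and passed against vehicle mice 1 to 5 (0.47, adjusted p = 0.0295). Fech, the last enzyme of haem synthesis, was 1.25-fold lower (adjusted p = 0.0435), and Hamp, hepcidin, changed by -0.24 (adjusted p = 0.305). The fall of Fech did not pass against vehicle mice 1 to 5 (limma adjusted p = 0.14) and was lost in 10 of the fits with 1 mouse left out.

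Of 14 lipid droplet and transfer genes 2 (14.29%) rose, beside 2.03% of all genes. These were Plin5, a droplet coat protein (0.62, adjusted p = 0.0429), and Cideb, which aids lipoprotein loading (0.40, adjusted p = 0.0419). None of the 14 passed against vehicle mice 1 to 5, and Cideb lost the call in 11 of the fits with 1 mouse left out. Hnf4a, a hepatocyte transcription factor, had 6886, 7423, 7389 and 6874 in NTS-1 mice, against a lowest of 3851, a median of 5289.8 and a highest of 6089 in vehicle mice, and was 1.43-fold higher (limma adjusted p = 0.016), while dimmer probe sets of it changed by 0.36, -0.02 and -0.15. Against vehicle mice 1 to 5 Hnf4a did not pass (limma adjusted p = 0.0578). Pgd of the pentose phosphate pathway was the only one of 18 NRF2 targets past the test (0.52, adjusted p = 0.0391). No member passed among 29 listed cytochromes P450 of families 1 to 4 (a list that does not hold Cyp2d22), 19 cholesterol synthesis genes, 18 bile acid genes, 15 p53 targets or 22 DNA replication genes. Of these, Cyp2b10, inducible by drugs, changed by 0.42 (adjusted p = 0.461), Cyp7a1, which starts bile acid synthesis, by -0.04 (adjusted p = 0.986) and Cdkn1a, the p53 target p21, by 1.10 (adjusted p = 0.334). Cdkn1a had 395, 428, 326 and 411 in NTS-1 mice, against 193 to 338 in vehicle mice 1 to 5 and 84.6 to 187.6 in mice 6 to 10. The spread used in its test also came from TS-2 mice, which ran from 325 to 9349.

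Rnaseh1, which encodes the RNase H1 that gapmers recruit, had 79.5, 90.7, 92.7 and 79.3 in NTS-1 mice, against a lowest of 88.6, a median of 96.8 and a highest of 113 in vehicle mice, and did not pass (log2 change -0.19, adjusted p = 0.141). Rnaseh2b, of RNase H2, was the only one of 26 genes of RNase H, RNA decay and gapmer binding past the test (-0.34, adjusted p = 0.0493). This is 3.85%, near the 3.19% of all genes lower. Casp4, an inflammatory caspase, was the only one of 18 cell death genes past the test (-0.55, adjusted p = 0.0344), or 5.56% beside the same 3.19%. It did not pass against vehicle mice 1 to 5 (limma adjusted p = 0.0949) and lost the call in 7 of the fits with 1 mouse left out. Among other large falls, Rassf3, a Ras-association protein, had 261, 297, 248 and 148 in NTS-1 mice and a lowest of 300.4, a median of 564 and a highest of 963 in vehicle mice (log2 change -1.24 ± 0.24, limma adjusted p = 0.0084). Ogt, which adds N-acetylglucosamine to proteins, had 112, 109.5, 151 and 104 in NTS-1 mice, against a lowest of 158, a median of 257 and a highest of 278 in vehicle mice (log2 change -1.05 ± 0.25, limma adjusted p = 0.0209). Neither gene's groups overlapped. Zfp715 (-1.02, adjusted p = 0.00309) and Zfp617 (-0.71, adjusted p = 0.00309), zinc finger genes, passed against vehicle mice 1 to 5 as well, with an adjusted p of 0.0295 each. The naming rule also gave Hectd2os (-1.59, adjusted p = 0.0146), Gm32461 (-1.24, adjusted p = 0.0109), Cebpzos (-1.22, adjusted p = 0.00431), Adamdec1 (-1.16, adjusted p = 0.0181), Tcim (-1.11, adjusted p = 0.0429) and 2410006H16Rik (-1.09, adjusted p = 0.00926) as falls. Gm32461, Cebpzos and 2410006H16Rik passed against vehicle mice 1 to 5 (limma adjusted p of 0.047, 0.0295 and 0.0338). Hectd2os and Adamdec1 did not (limma adjusted p of 0.0545 and 0.0937).

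Few interferon-stimulated genes passed the test after 4 doses. Of 37 effectors measured 1 passed (2.7%, near the 2.03% of all genes higher), Oasl1, an oligoadenylate synthetase-like protein. The median of the list was 0.13. Oasl1 had 171, 284, 176 and 131 in NTS-1 mice, against a lowest of 56.2, a median of 105 and a highest of 129.8 in vehicle mice (log2 change 0.82 ± 0.24, limma adjusted p = 0.0499), and it lost the call when any of 11 mice, the 4 NTS-1 mice among them, was left out. Igtp was the only one of 9 interferon-inducible GTPases past the test, with 903, 1657, 1088 and 1232 in NTS-1 mice and a lowest of 562, a median of 708 and a highest of 1027 in vehicle mice (log2 change 0.72 ± 0.18, limma adjusted p = 0.028), and without NTS-1 mouse 2 its adjusted p was 0.117. Usp18, which ends interferon signalling, had 229, 559.7, 268 and 179 in NTS-1 mice, against a lowest of 89.6, a median of 129 and a highest of 241 in vehicle mice (log2 change 0.99, adjusted p = 0.179). Ifit1, which binds foreign RNA, had 159, 278, 163 and 85.2 in NTS-1 mice and a lowest of 39.1, a median of 85.0 and a highest of 102 in vehicle mice (log2 change 1.10, adjusted p = 0.0996). None of 18 interferon sensors and transcription factors and none of 13 genes of MHC class I passed.

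The same genes were measured in other mice after 1 dose of 25 mg/kg (3, 4 and 3 NTS-1 mice at 8, 16 and 72 h, with 3 vehicle mice at each time), in arrays normalized apart, so no test was made between the sets. Their scales differ, with a lowest intensity of 4.56 on single-dose arrays and 6.1 to 6.92 on NTS-1 and vehicle arrays at 2 weeks. Sizes of change are therefore not alike between the sets. Probe sets were chosen anew for the single-dose arrays, so a gene may be read by another probe set there. The percentile filter removed none of 18194 genes in that set, so its shares of all genes include dim genes. At 8 h, 28 of the 37 effectors were higher in NTS-1 than in vehicle mice, where 0.528% of all genes were higher and 0.121% lower, with a median log2 change of 3.16. At 16 h, 15 were higher (0.137% of all genes, with 0.0220% lower) with a median of 1.41, and at 72 h none passed, with a median of 0.28. Ifit1 changed by 7.32, 3.77 and 1.09 at 8, 16 and 72 h and by 1.10 at 2 weeks. Usp18 changed by 6.06, 3.19 and 1.11 at 8, 16 and 72 h and by 0.99 at 2 weeks. Oasl1 changed by 5.81, 2.97 and 0.32 at 8, 16 and 72 h and by 0.82 at 2 weeks, and of the 759 genes of the 2-week comparison it alone also passed in the same direction at 8 h and at 16 h. The endothelial list had medians of 0.07, -0.03 and 0.14 and the host genes medians of 0.10, 0.00 and -0.06 at 8, 16 and 72 h, and no member of either list passed there.

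**Figure D4:**
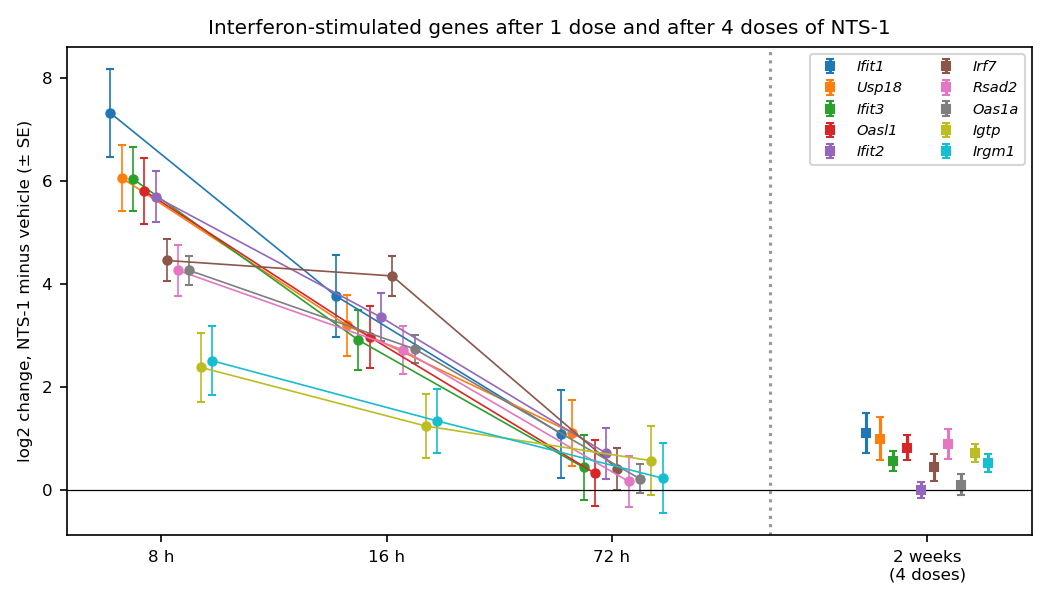
Log2 change, NTS-1 minus vehicle, of 10 interferon-stimulated genes at 8, 16 and 72 h after 1 dose (circles) and at 2 weeks after 4 doses (squares, from arrays normalized separately on another scale), with SE bars. At 8 h the changes run from 2.38 for Igtp to 7.32 for Ifit1, and at 2 weeks Ifit1 has the highest at 1.10.

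NTS-1 mouse 2 stood apart in acute phase genes. Orm2, an orosomucoid, had 84.8, 4677, 101 and 110.1 in NTS-1 mice, against a lowest of 45.2, a median of 80.6 and a highest of 137 in vehicle mice (log2 change 1.68, adjusted p = 0.343). Saa2, a serum amyloid A, had 565, 7224, 510.0 and 404 in NTS-1 mice and a lowest of 253, a median of 398 and a highest of 744 in vehicle mice (log2 change 1.21, adjusted p = 0.334). Lcn2, lipocalin 2, had 67.9, 1302, 111 and 58.1 in NTS-1 mice, against a lowest of 29.2, a median of 47.1 and a highest of 68.5 in vehicle mice (log2 change 1.70, adjusted p = 0.295). In each gene mouse 2 was far above the other NTS-1 mice. None of 27 acute phase genes passed, and without mouse 2 the adjusted p was 0.899 for Orm2, 0.883 for Saa2 and 0.744 for Lcn2. Orm2 and Saa2 were named after their values were seen. Lrg1, a plasma glycoprotein of the acute phase outside that list, had 8694, 13481, 10527 and 9135 in NTS-1 mice and a lowest of 4775, a median of 6374 and a highest of 8184 in vehicle mice (log2 change 0.71 ± 0.16, limma adjusted p = 0.0196), with an adjusted p of 0.0843 without mouse 2.

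**Figure D5:**
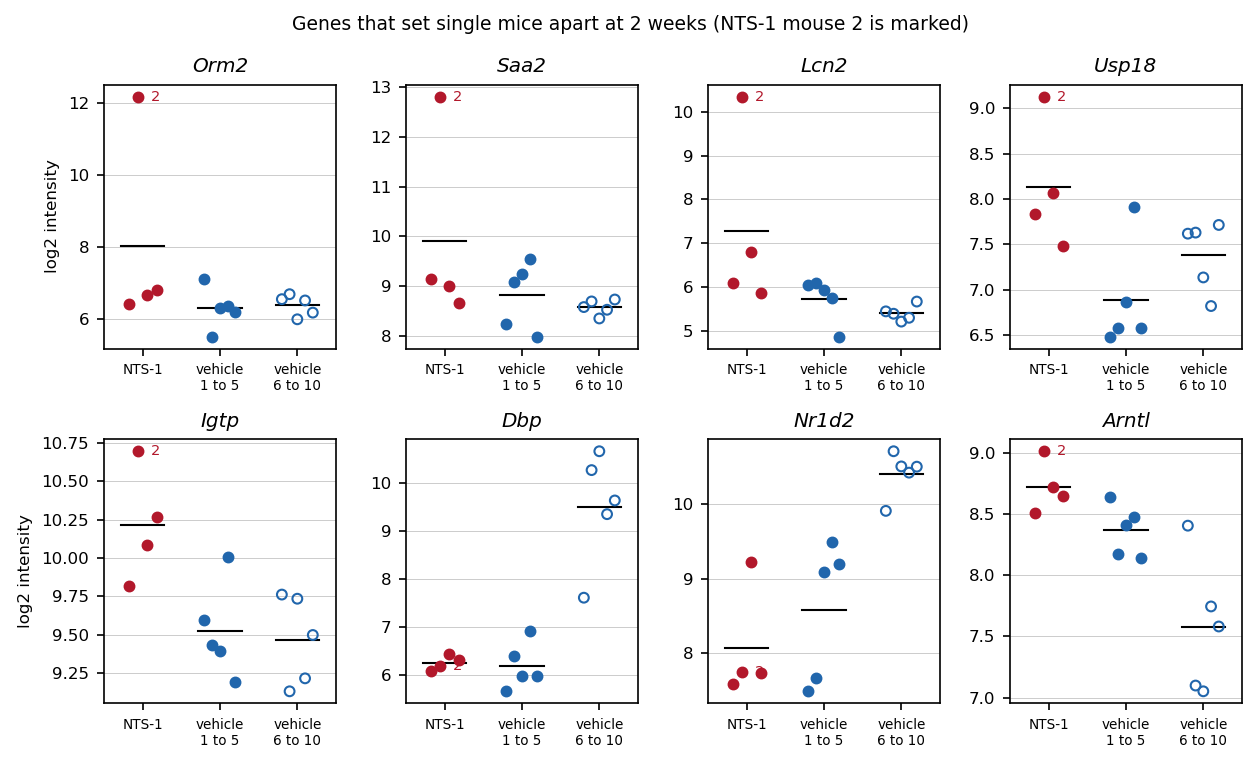
Log2 intensity of 8 genes in single mice at 2 weeks, with NTS-1 mice (mouse 2 marked) left of vehicle mice 1 to 5 (filled) and 6 to 10 (open), and black lines at the group means. Mouse 2 has 4677 for Orm2, and the NTS-1 mice lie with vehicle mice 1 to 5 and below mice 6 to 10 for Dbp.

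The toxic gapmer TS-2 was set directly against NTS-1 in the same fit, and 1991 genes (13.7%) were higher and 1017 genes (7.00%) lower in TS-2 than in NTS-1 mice. Cyp2b10 was lower, with 106 to 174 in TS-2 mice and 409 to 1131 in NTS-1 mice (-2.30, 95% interval -2.99 to -1.62, adjusted p = 0.00018). Cdkn1a was higher, with 325 to 9349 in TS-2 mice and 326 to 428 in NTS-1 mice (2.52, 95% interval 1.06 to 3.99, adjusted p = 0.0151). Usp18 (2.23, 95% interval 1.22 to 3.23, adjusted p = 0.00356) and Nqo1, an NRF2 target (1.77, 95% interval 1.04 to 2.495, adjusted p = 0.00194), were also higher in TS-2 mice. Mrc1 was lower still in TS-2 mice, with 84.2 to 223 in TS-2 mice and 172 to 274 in NTS-1 mice (-1.09, 95% interval -1.68 to -0.50, adjusted p = 0.0105).

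Other genes that NTS-1 changed showed no difference past the test between the gapmers. Kdr differed by -0.17, 95% interval -0.56 to 0.23, adjusted p = 0.551. Nfix differed by -0.24, 95% interval -0.58 to 0.11, adjusted p = 0.311, and Cyp2d22 by 0.02, 95% interval -0.16 to 0.19, adjusted p = 0.909. Rps15 differed by 0.03, 95% interval -0.17 to 0.23, adjusted p = 0.851, and Snhg1 by 0.00, 95% interval -0.73 to 0.73, adjusted p = 0.999. These intervals bound each difference and do not show equal levels. In the lists, 2 of 19 endothelial markers were lower and 1 higher in TS-2 than in NTS-1 mice, 1 of 16 host genes was lower and none higher, and 12 of 15 p53 targets were higher and none lower. Of all genes tested 7.00% were lower and 13.7% higher in this contrast.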

How the data were processed

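Affymetrix mouse arrays were hybridised with whole liver RNA, 1 array a mouse. Per the submitters' processing notes the authors used RMA, and the deposited values are probe set intensities on a linear scale, with the 2-week and single-dose sets normalized apart. Of 45101 probe sets, 34958 had 1 gene in the platform annotation, 932 several and 9211 none, and symbols were updated through RefSeq tables for 34754. Intensities were taken to log2, and for each of 18194 genes the probe set with the highest mean over the 19 arrays of the 2-week set was kept. A gene was kept for testing where 3 or more arrays placed it at or above their 40th percentile, so that 3657 dropped out and 14537 stayed. An intensity of 32 served as the limit for dim values.

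Groups were taken from the titles. limma 3.58.1 in R 4.3.3 fitted NTS-1 (4), TS-2 (5) and vehicle (10) mice with one variance per gene and 16 residual degrees of freedom, and p-values were adjusted by Benjamini-Hochberg at 0.05 over all genes tested. The single-dose set was fitted over its 37 arrays and 18194 genes, with the probe set of each gene chosen by the mean over those arrays. The same percentile filter removed no gene there. No 2 arrays of the 2-week set held identical values. On simulated data for the NTS-1 comparison, 98% of 100 genes changed 2-fold and 100% of 100 genes changed 4-fold were recovered. There were 13 false calls among the unchanged genes of the 14537. The simulated noise was normal and independent between genes and mice, with no split of the vehicle mice. Smaller changes, such as the median of 1.44-fold among the calls, were not simulated. These rates therefore check the fit and do not describe the measured data. The number of arrays limits the precision.

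The members, gene lists and named genes were chosen with earlier results of these data known. Named by rule were a panel of 36 genes, the 15 largest rises and falls without overlap, up to 4 members of each list past the test, and the 3 smallest adjusted p in each direction, and 6 of 48 lists were added after the values were seen. Alternatives covered the choice of probe set, filter, normalization, array weights, control mice, an Actb covariate, a replicate block and leaving out each mouse. Replicate numbers are shared between groups, but same-numbered NTS-1 and vehicle mice had correlations of -0.28 to -0.04 in their deviations over 13198 genes, so the numbers were not taken as pairs.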

Additional observations from a re-analysis of the deposited data

Results flagged for a closer look

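In 286 groups of mice examined, 1 for each named gene in NTS-1 and in vehicle mice, 18 (6.3%) had 1 mouse whose gap to its nearest neighbour took an unusually large share of the group's range, and chance gives about 1 in 20. Some of the genes, Orm2, Saa2 and Creld2 among them, were named after their values were seen, so this is no test against chance. Among NTS-1 mice the share was 0.935 for Orm2, 0.884 for Saa2 and 0.832 for Scd1, a fatty acid desaturase, all through mouse 2. It was 0.901 for Nr1d2 and 0.842 for AI661453 through mouse 3, 0.885 for Creld2 and 0.859 for Ndufa4 through mouse 4, and 0.914 for Rps24 and 0.868 for Stab1 through mouse 1. Creld2, an endoplasmic reticulum stress gene, had 706, 756, 842 and 3224 in NTS-1 mice and 490.0 to 957 in vehicle mice (log2 change 0.69, adjusted p = 0.293). Scd1 had 9644, 15571, 9627 and 10435 in NTS-1 mice and 11314 to 20341 in vehicle mice (log2 change -0.56, adjusted p = 0.31).

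Among vehicle mice the share was 0.55 for Asgr2, 0.515 for Pecam1, 0.496 for Rpn1 and 0.491 for Kdr, all through mouse 7. It was 0.65 for Oasl1 and 0.484 for Oas1a through mouse 5, 0.606 for Ogt through mouse 2, 0.48 for Fech through mouse 1 and 0.471 for Adamdec1 through mouse 10.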

How the results depend on the processing

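Against the 759 genes past the test, array weights gave 1916, the Actb 3' to 5' ratio as a covariate 1172, vehicle mice 1 to 5 as the only controls 9, and the vehicle mice as 2 groups 153 against mice 1 to 5 and 503 against mice 6 to 10. The NTS-1 and vehicle arrays alone, with no TS-2 mouse in the fit, gave 1046. Leaving out 1 mouse gave 165 to 1327. The replicate block gave 0 calls with limma, though 1943 genes had an unadjusted p under 0.05. The shared numbers were not pairs. The 6 endothelial markers became 0 with vehicle mice 1 to 5 as the only controls, 0 against them as a separate group, 0 with the replicate block and 0 to 6 with 1 mouse left out. The 5 host genes became 0, 0 and 0 under the same settings, 3 against mice 6 to 10 as a separate group, 3 with vehicle mice 7 and 10 left out, and 0 to 6 with 1 mouse left out. The 13 ribosomal protein genes became 6 with the mean of each gene's probe sets, 0 with vehicle mice 1 to 5 as the only controls, 7 with mice 6 to 10 as the only controls, 5 and 7 against these mice as separate groups, 0 with the replicate block and 5 to 17 with 1 mouse left out. TS-2 minus NTS-1 gave 1511 genes in place of 3008 with those arrays alone, 1097 with the replicate block and 1906 to 3896 with 1 mouse left out, and the planned fit of NTS-1 and vehicle arrays was not run for it, since it holds no TS-2 mouse. At 16 h, 5 in place of 8 named genes passed with the replicate block. The causes were not tested. Of the 80 named genes past the test none changed sign in 2319 alternative values. These values reuse the mice that gave the calls, so a kept sign is no separate support. Of the 80, 31 passed against vehicle mice 1 to 5, 37 without NTS-1 mouse 2 and 53 with the mean of probe sets. Of the 63 others, 70 of 1827 values changed sign and 37 passed. The fits with the vehicle mice as 2 groups, without vehicle mice 7 and 10 and with TS-2 and NTS-1 arrays alone were chosen after seeing the data. A bright probe set of opposite sign existed for 9 of the 39 named genes past the test that have another bright one.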

Other observations

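Immediate early genes and long adhesion genes held no member past the test. Fos, an immediate early transcription factor, had 51.4, 1086, 1974 and 789 in NTS-1 mice, against a lowest of 24.2, a median of 163 and a highest of 552 in vehicle mice (log2 change 1.95, adjusted p = 0.233). Mpeg1, a pore-forming protein of macrophages, had 524, 1245, 821 and 367 in NTS-1 mice and a lowest of 195, a median of 292 and a highest of 511 in vehicle mice (log2 change 1.13, adjusted p = 0.067). Both genes were named after their values were seen. A list of adhesion and long genes, named for falls after toxic gapmers, held 22 measured genes. Their median log2 change was 0.02 for NTS-1 minus vehicle and -0.97 for TS-2 minus NTS-1. In the latter 14 were lower and 1 higher, beside 7.00% and 13.7% of all genes. The list was chosen with earlier results of these data known, so its TS-2 values are a description and no test.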
